A study of Mus musculus with 3 samples.

Results

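The 9 receptors described here each had 2 transcription start positions on the same strand in the authors' table of named olfactory receptor promoters. They are Olfr1026, Olfr1076, Olfr1138, Olfr1206, Olfr1223, Olfr137, Olfr145, Olfr1489 and Olfr228, and they were picked by name out of 1007 receptor gene names. The table holds 1085 positions in all, of which these receptors account for 18. The same description fits 15 genes of the table, and the 6 not picked serve as a comparison. For each receptor, the position met first in the direction of transcription is called the upstream start and the other one the downstream start. The 2 starts lay between 2627 and 8568 bp apart, with a median of 6192 bp, on mouse build mm9. No other named position lay between them at any of the 9 receptors.

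The signal came from 3 tiling arrays hybridised with 5′ ends of receptor mRNA from the olfactory epithelium. Tissue was pooled from 5 adult mice per sample (strain C57/Bl6, 6 to 8 weeks old), and capped 5′ ends were recovered by RLM-RACE with cDNA primed by degenerate oligonucleotides in the receptor coding sequences. The Stringent product (1 array) went through nested PCR, a second amplification with primers inside the first pair. The High Coverage product (2 arrays) was amplified without nesting. The headers of the score files name a female input for High Coverage 1 and a male one for High Coverage 2, so the gap between these arrays cannot be told apart from one between the sexes.

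Olfactory receptors are G protein-coupled receptors of olfactory sensory neurons, and a mature neuron expresses a single receptor allele out of the whole family. Their genes usually carry the coding sequence in 1 exon, which follows 1 or more short noncoding 5′ exons across an intron of some kilobases. A receptor with several starts makes mRNAs that differ in their 5′ exons and share the same protein. In this assay an exon that lies between the cap and the primer gives signal, and intron does not. A start used in the tissue is therefore a place where signal begins and runs downstream, and the 3′ end of the product is set by the primer.

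Most receptor models of the reference open at the coding sequence. RefSeq windows (GRCm38.p6, 250 bases before to 50 after the start of the model) were found for 6 of the 9 receptors, and 5 of these models begin at the start codon itself, as do 685 of 946 receptor windows in the table. The 30 bases around the start of those models are given below with the ATG in capitals, to show that each model opens with the protein. They are on another build than the arrays and were not placed on the array coordinates.
Olfr1026, chr2:85923255-85923284, plus strand: gttccaagcttacagATGttaaagaaaaac
Olfr1206, chr2:88864592-88864621, plus strand: tcttggactgacacaATGcagcacaacagc
Olfr1489, chr19:13633098-13633127, plus strand: tctcgtgaaacacagATGcataatatttcc
Olfr1138, chr2:87738308-87738337, minus strand: caaaaccaaagaatcATGgataaggggaac
Olfr228, chr2:86483726-86483755, minus strand: tttcacataaactcaATGaaaaaacaaaac
Olfr1223 was the 1 receptor of the 6 whose model does not begin with ATG, and the bases before it are printed with its values. No window was matched for Olfr1076, Olfr137 or Olfr145.

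A start was read as the highest MAT score within 100 bp of its position. MAT subtracts the brightness that a probe's bases predict and standardises what is left over a window of probes, so a score belongs to its own array. The 2 starts of a receptor were therefore ordered within an array. Percentiles are among the 2188086 scored probes of that array. A score near 0 was already above most probes. On Stringent a score of -0.0246 was at the 82.4 percentile, and on High Coverage 1 a score of 0.0161 was at the 69.8 percentile. The authors called regions where the score passed 2.52 on Stringent, and 2.53 and 2.99 on High Coverage arrays 1 and 2. With 1 array against 2, a test with arrays as units would have very little power and none was run. Each comparison of products is set beside the gap between the High Coverage arrays.

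Within 100 bp of the positions, which start carried more signal differed between the products in 5 of the 9 receptors, against 53.3% of all 15 genes with 2 positions on one strand. With a window of 500 bp that count was 2, so the orders below are those of the close windows. On Stringent the upstream start was the higher one in 1 of 9 receptors, Olfr137, and the downstream start in 8. Over all 15 genes, which include these 9, the upstream start was higher on Stringent in 6.67%, a share made up of Olfr137 alone. High Coverage 1 had the upstream start higher in 6 of the 9 receptors, against 66.7% of all 15 genes. High Coverage 2 likewise had it higher in 6 of 9, against 60%. Both High Coverage arrays gave the same order in 9 of 9 receptors. In 5 of 9 receptors (Olfr1026, Olfr1138, Olfr1223, Olfr145 and Olfr228) the order on Stringent was opposite to that on both High Coverage arrays. The same held in 3 of the 6 genes not picked. The remaining receptors kept 1 order throughout, with the downstream start higher on all 3 arrays in Olfr1076, Olfr1206 and Olfr1489 and the upstream start higher in Olfr137.

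**Figure D1:**
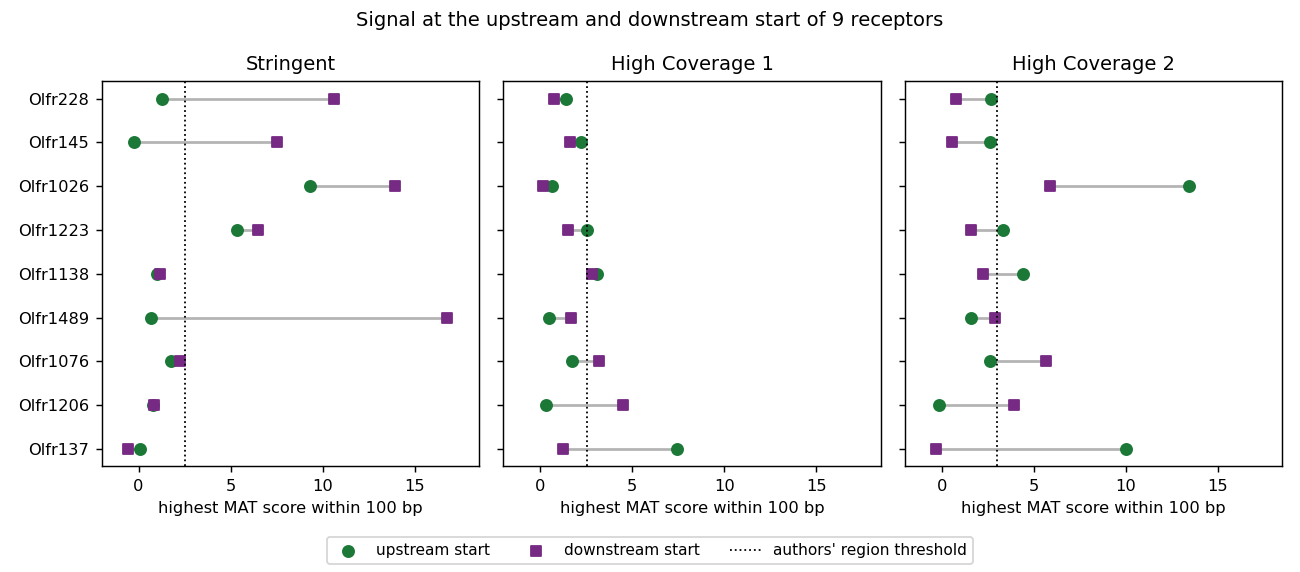
The highest MAT score within 100 bp of the upstream start (circle) and the downstream start (square) of each receptor, with 1 panel per array and the authors' region threshold dotted. On Stringent the upstream start of Olfr1489 has 0.672 and its downstream start 16.7, while on High Coverage 2 the upstream start of Olfr1026 leads with 13.4 against 5.88.

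Not all of these differences were sizeable. The median difference, upstream minus downstream, was -1.14 on Stringent, and 0.485 and 1.87 on High Coverage arrays 1 and 2. When only differences above the median absolute deviation of the array's scores were counted (0.428 on Stringent, and 0.583 and 0.656 on High Coverage arrays 1 and 2), a limit chosen after the values were seen, the upstream start led in 1 receptor on Stringent, and in 3 and 6 on High Coverage arrays 1 and 2. The downstream start led by that limit in 6 receptors on Stringent and in 3 on each High Coverage array. Opposite orders remained in 2 receptors, Olfr1223 and Olfr228. The Stringent difference departed from the High Coverage mean by more than the gap between the High Coverage arrays in 8 of 9 receptors, all but Olfr1138. The same held in the 6 genes not picked, all but Olfr497. The 95th percentile of the scores was 5.49 on Stringent, and 2.33 and 3.10 on High Coverage arrays 1 and 2. The size of such a departure is therefore not on a common scale.

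**Figure D2:**
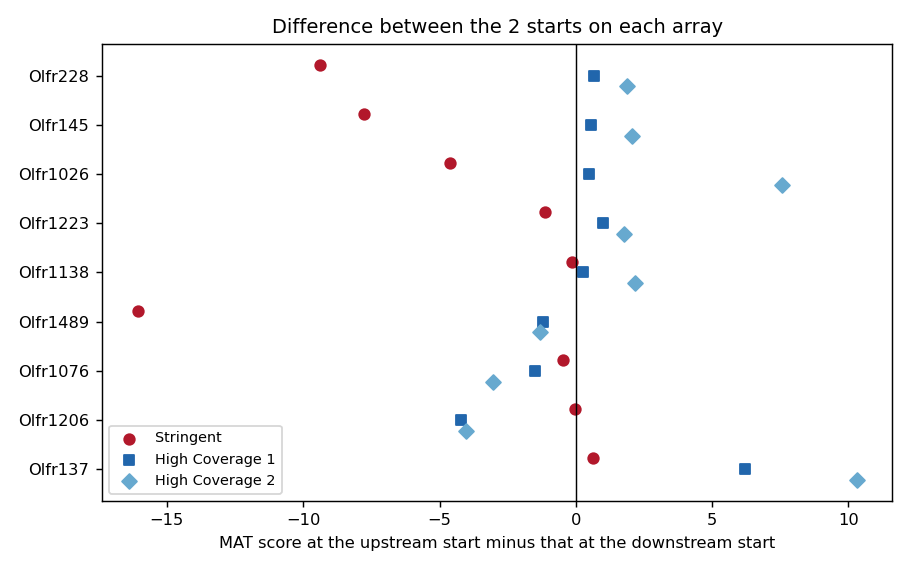
The MAT score at the upstream start minus that at the downstream start, for each receptor on Stringent (circle), High Coverage 1 (square) and High Coverage 2 (diamond). The 5 uppermost receptors have Stringent left of 0 and both High Coverage arrays right of it.

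Olfr228 and Olfr145 had the widest shift towards the downstream start among the receptors whose order differed between the products. Olfr228 (MOR189-3) lies on chromosome 2, minus strand, with the upstream start at 86330816 and the downstream start at 86323930. Its upstream start scored 1.26 on Stringent, and 1.42 and 2.66 on High Coverage arrays 1 and 2, below the region threshold on each. Its downstream start scored 10.6 on Stringent, and 0.753 and 0.790 on High Coverage arrays 1 and 2. Only the downstream start on Stringent stood out, in a region of 527 bp with a score of 16.6 that opened 29 bp before the position. The difference was -9.37 on Stringent, while the High Coverage arrays had 0.668 and 1.87. With a window of 500 bp the High Coverage differences turned to -7.97 and -4.45, and the downstream start was then higher on all 3 arrays. The High Coverage arrays did carry signal past the downstream start, but farther in, with regions from 263 to 517 bp beyond it on High Coverage 1 (score 9.65) and from 245 to 453 bp on High Coverage 2 (score 7.10). Between the starts, a Stringent region from 1810 to 2071 bp after the upstream start scored 9.73, and weaker High Coverage regions of 4.29 and 4.26 opened at 2077 bp.

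Olfr145 (MOR161-6, also K21) lies on chromosome 9, plus strand, with starts at 37698062 and 37704254. The upstream start had -0.224 on Stringent, and 2.20 and 2.63 on High Coverage arrays 1 and 2, and the downstream start 7.54, 1.63 and 0.569 on the same arrays. No array had a called region at the upstream start. A single Stringent region ran for 1199 bp from 40 bp before the downstream start, with a score of 12.8. Without nesting, signal was called only in the far part of that stretch, 776 to 1169 bp beyond the start on High Coverage 1 (score 12.7) and 831 to 1154 bp beyond it on High Coverage 2 (score 4.52). The 5′ part of the stretch was thus called on Stringent alone.

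Olfr1026 (MOR196-4) had called regions at both starts on Stringent and on High Coverage 2. It lies on chromosome 2, plus strand, with starts at 85756840 and 85761666. Scores at the upstream start were 9.30 on Stringent, and 0.646 and 13.4 on High Coverage arrays 1 and 2. Those at the downstream start were 13.9, 0.161 and 5.88. High Coverage 2 thus had the higher score at the upstream start and Stringent at the downstream start, whereas High Coverage 1 was low at both, so the shift of -8.64 stands beside a High Coverage gap of 7.06. Regions at the upstream start had nearly the same outline, from -45 to 173 bp on Stringent and from -55 to 173 bp on High Coverage 2. A further region followed at 1112 bp from the upstream start on both, with scores of 15.5 on Stringent and 20.2 on High Coverage 2. Another began 1656 bp beyond the downstream start on both, with scores of 17.8 and 15.9.

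Olfr1223 (MOR233-10) likewise had regions at both starts on Stringent and High Coverage 2, with differences of a few score units at most. It lies on chromosome 2, minus strand, with starts at 88997673 and 88991575. The upstream start scored 5.34 on Stringent, and 2.53 and 3.34 on High Coverage arrays 1 and 2, and the downstream start 6.48, 1.53 and 1.57. The differences of -1.14, 0.996 and 1.76 compare with a High Coverage gap of 0.765. Far stronger signal lay just beyond the window of the upstream start. The Stringent region there ran from 167 to 814 bp with a score of 27.3. The High Coverage 1 region ran from 167 to 809 bp with 34.6, and the High Coverage 2 region from 232 to 952 bp with 27.8. Those of Stringent and High Coverage 1 were the highest region scores of their arrays around the 9 pairs of starts. With a window of 500 bp the Stringent order turned, and the upstream start was the higher one on all 3 arrays. The downstream start had a region on each array, scoring 9.85 on Stringent, and 4.07 and 5.58 on High Coverage arrays 1 and 2. The High Coverage regions opened only 98 bp past that start.

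The RefSeq model of Olfr1223 does not begin with ATG. Whether it opens before its coding sequence was not checked, and its start was not placed on the array coordinates. The 250 bases before the model's start on GRCm38.p6 are chr2:89151337-89151586, minus strand, with the motif CCCNNGGG in capitals, which is the core of the site bound by the Olf1/EBF factors of olfactory neurons. The motif reads alike on both strands.
Olfr1223: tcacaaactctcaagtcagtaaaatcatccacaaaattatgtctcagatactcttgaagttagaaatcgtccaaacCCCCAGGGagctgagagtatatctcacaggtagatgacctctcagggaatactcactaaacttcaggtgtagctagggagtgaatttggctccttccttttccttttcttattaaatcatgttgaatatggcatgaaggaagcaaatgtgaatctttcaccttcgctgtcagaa
It was added to the search after the sequence had been read. It occurred in 1 of the 6 windows, in 3.07% of the 946 receptor windows and in 13.7% of all 32851 windows. TATAAA, on either strand, was in 4 of the 6 windows (those of Olfr1026, Olfr1138, Olfr1206 and Olfr1489) and in 41.1% of receptor windows, and TAATTA, the core of homeodomain sites, in 1 of 6 (Olfr1138) and 18.6%. The windows of the other 5 receptors lie around the start codon of the model, and they include 50 bases of it. The TATAAA of Olfr1206 lay 27 bp past the start of its model. None of the 6 windows was placed on the array coordinates, so these matches say nothing of the mapped starts. The A and T content was 59.7% for Olfr1223 and 64.0% to 74.0% for the others, against medians of 65.0% for receptor windows and 47.3% for all.

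Olfr1138 (MOR177-8) lies on chromosome 2, minus strand, with starts at 87587669 and 87579101, the widest spacing of the 9. Its upstream start scored 0.986 on Stringent, and 3.09 and 4.43 on High Coverage arrays 1 and 2, and its downstream start 1.14, 2.84 and 2.27. Stringent had no region at either start, and its order rests on a difference of -0.155. High Coverage 2 had a region at the upstream start only and High Coverage 1 at both. The strongest signal was again past the upstream start, where Stringent had no region. High Coverage 1 had a region from 434 to 748 bp with a score of 19.4, and High Coverage 2 one from 385 to 1413 bp with a score of 31.9, whereas the highest Stringent score between the starts was 1.93. Beyond the downstream start both products had signal, with regions from 703 to 885 bp on Stringent (score 5.27) and from 520 to 887 bp on High Coverage 2 (score 19.6).

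Olfr1489 (MOR202-19) had the largest difference of any receptor here on Stringent, -16.1, and kept the same order without nesting. It lies on chromosome 19, plus strand, with starts at 13698701 and 13706043. The upstream start scored 0.672 on Stringent, and 0.490 and 1.57 on High Coverage arrays 1 and 2, with no region on any array. The downstream start scored 16.7 on Stringent, the 99.1 percentile, while the High Coverage arrays had 1.68 and 2.87. The High Coverage differences were -1.19 and -1.30, only 0.109 apart. Stringent showed 3 separate regions in a row from the downstream start, from -50 to 292 bp, from 490 to 749 bp and from 1448 to 1974 bp, with scores of 17.6, 11.6 and 15.1. High Coverage 1 had no region at the start and High Coverage 2 had one that opened 45 bp past it with a score of 3.34.

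Olfr1206 and Olfr1076 favoured the downstream start mainly on the High Coverage arrays. Olfr1206 (MOR230-3) lies on chromosome 2, plus strand, with starts at 88695727 and 88702638. The upstream start had 0.803 on Stringent, and 0.321 and -0.132 on High Coverage arrays 1 and 2, and the downstream start 0.824, 4.52 and 3.91. Both High Coverage arrays called a region at the downstream start and neither called one at the upstream start. The Stringent difference of -0.0210 was far below the median absolute deviation, and a Stringent region from 2134 to 2264 bp past the downstream start scored 2.54, just over the threshold of 2.52. Only 16.8% of the stretch between the starts held probes, so signal there could hardly be read.

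Olfr1076 (MOR189-2) lies on chromosome 2, plus strand, with starts at 86343141 and 86345768, only 2627 bp apart. The upstream start scored 1.77 on Stringent, and 1.71 and 2.62 on High Coverage arrays 1 and 2, and the downstream start 2.24, 3.21 and 5.67. The downstream start was called on both High Coverage arrays, with scores of 3.21 and 5.67, and on Stringent neither start was. The upstream start had a region on High Coverage 1 alone, which opened 47 bp past it with a score of 2.99. A Stringent region with a score of 10.4 lay 2782 to 3170 bp beyond the downstream start. Olfr1076 and Olfr228 are each other's nearest named genes, on opposite strands and with upstream starts 12325 bp apart, and their RefSeq synonyms MOR189-2 and MOR189-3 place them in 1 receptor family. How far related probes share signal between the 2 genes was not tested.

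Olfr137 (MOR256-18) was the receptor with the higher score at the upstream start on all 3 arrays within 100 bp, by a small margin on Stringent and large ones on the High Coverage arrays. With a window of 500 bp this order turned on all 3 arrays, with differences of -2.71 on Stringent, and -6.56 and -2.43 on High Coverage arrays 1 and 2. It lies on chromosome 17, minus strand, with starts at 38448043 and 38445395. The upstream start scored 0.0695 on Stringent, and 7.43 and 10.0045 on High Coverage arrays 1 and 2, and the downstream start -0.564, 1.22 and -0.291. No array called a region within 100 bp of the downstream start. The window of the upstream start held 34 scored probes and that of the downstream start 19. High Coverage signal followed after the upstream start, and its highest regions there, both ending 1116 bp from it, reached 16.7 on High Coverage 1 and 12.1 on High Coverage 2. Stringent reached 1.77 between the starts. Past the downstream start all 3 arrays met in 1 place, with regions that opened between 235 and 250 bp beyond it and scored 3.81 on Stringent, and 14.0 and 12.4 on High Coverage arrays 1 and 2. Stringent was high farther on, with regions of 12.15 and 17.99 from 799 to 1628 bp beyond the downstream start, where High Coverage 1 had one of 4.08 and High Coverage 2 none.

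**Figure D3:**
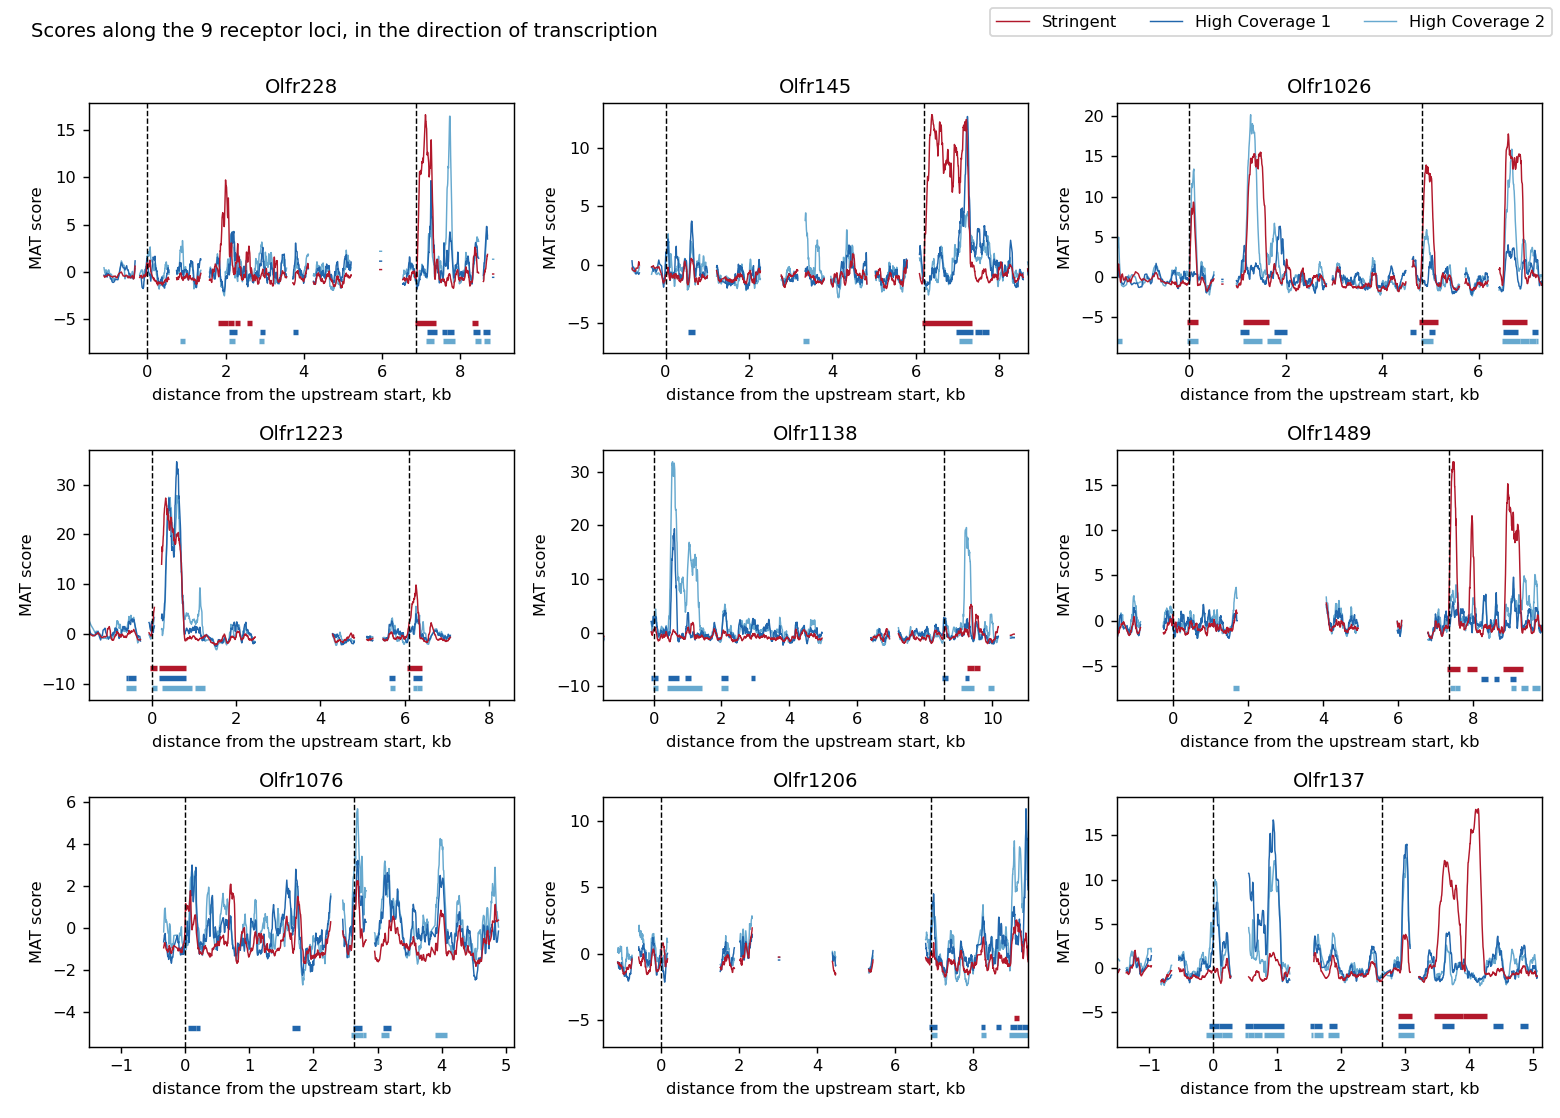
MAT score (vertical axis) against distance from the upstream start in kb, in the direction of transcription, for the 9 receptors, with dashed lines at the 2 starts and breaks where no probe was scored for over 100 bp. Bars under the curves mark called regions, in the colour of their array and at heights that carry no value, and those of Olfr1138 and Olfr137 just after the upstream start are seen on the High Coverage arrays alone.

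Called regions were more frequent at the downstream starts on Stringent, while the High Coverage counts at the 2 starts were nearly equal. Of the 18 positions, 7 had a region within 100 bp on Stringent, where 61.7% of all 1085 positions had one. High Coverage 1 had 7 of 18, against 36.4%, and High Coverage 2 had 9 of 18, against 43.6%. The Stringent count was low at the upstream starts, with 2 of 9, and 5 of 9 at the downstream starts. High Coverage 1 had 3 upstream and 4 downstream, and High Coverage 2 had 4 and 5. On both, the downstream count includes Olfr1223, whose region opened only 98 bp past the position. The scores within 100 bp of that position, 1.53 and 1.57, were below the region thresholds. So was the score at the upstream start of Olfr1076 on High Coverage 1, 1.71, which is counted too. On High Coverage 2 the downstream start of Olfr1489 was likewise counted with a score below the threshold, 2.87. Both starts were called in 2 receptors on each array, which were Olfr1026 and Olfr1223 on Stringent and on High Coverage 2 and Olfr1076 and Olfr1138 on High Coverage 1. Stringent called no receptor at the upstream start alone, while High Coverage 1 did so for 1 receptor and High Coverage 2 for 2. The downstream start of Olfr1223 was the only 1 of the 18 positions with a region on all 3 arrays, on High Coverage only through that region at the edge of the window. At 5 positions no array had a region.

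The step in signal across a start was larger at the downstream starts than at the upstream ones on Stringent, by its median, although the upstream starts of Olfr1026 and Olfr1223 were themselves called there. The mean score of the 150 bp after the start exceeded that of the 150 bp before it at 7 of 9 upstream starts on Stringent, by a median of 0.760, and at 9 of 9 downstream starts, by a median of 5.51. The High Coverage 1 count was 5 of 9 at both, with medians of 0.255 upstream and 0.496 downstream. High Coverage 2 had 8 of 9 upstream and 6 of 9 downstream, with medians of 1.55 and 2.11. In 50 bp bins, the Stringent median over receptors was highest between 150 and 200 bp beyond the downstream start, at 8.75, where the High Coverage arrays had 0.153 and 0.154. The Stringent regions at the 5 called downstream starts opened between 63 and 29 bp before the position. The basis on which positions were placed is not known here, so a step in signal at a position is not independent of its placing.

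**Figure D4:**
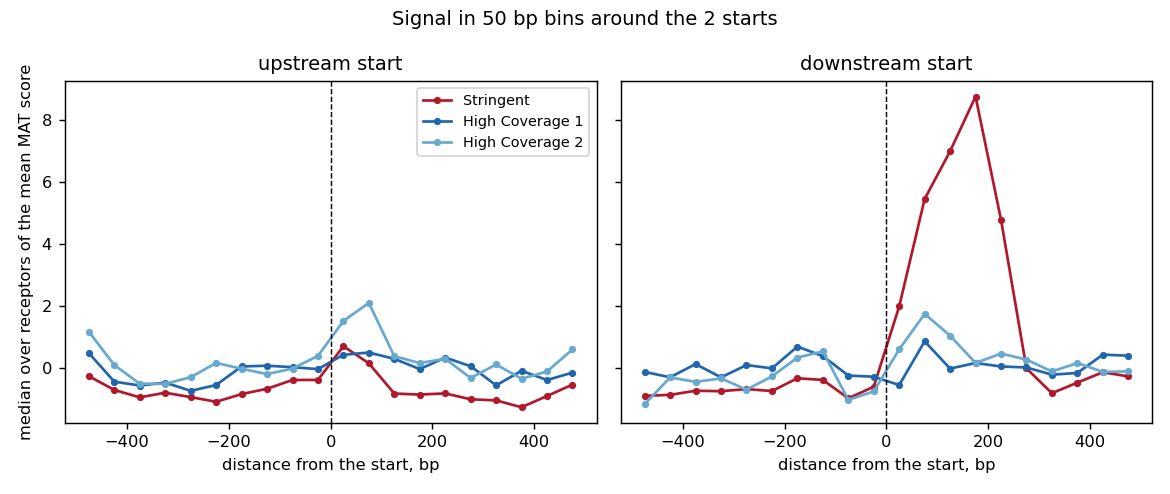
The mean MAT score in 50 bp bins around the upstream starts (left) and the downstream starts (right), as the median over the receptors with probes in the bin, for each array. Stringent peaks at 8.75 in the bin from 150 to 200 bp beyond the downstream start and stays at or under 0.695 around the upstream start.

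Because much signal lay past the window, the first 1000 bp after each start were read as well. By the highest score there, the upstream start led in 1 of 9 receptors on Stringent, Olfr1223, and in 3 of 9 on each High Coverage array, which were Olfr1138, Olfr1223 and Olfr137 on High Coverage 1 and Olfr1026, Olfr1138 and Olfr1223 on High Coverage 2. In Olfr228 the maximum after the upstream start was 1.26 on Stringent, and 1.68 and 3.32 on High Coverage arrays 1 and 2. The maximum after its downstream start was 16.6, 9.65 and 16.5 on the same arrays. The downstream start thus led over the first 1000 bp in most receptors on every array, and the upstream lead in 6 receptors on each High Coverage array was that of the 100 bp windows. Over this length only Olfr1138 had the opposite order on Stringent and on both High Coverage arrays. Within a kilobase of the downstream start all 3 arrays may also read a common downstream exon, which was not tested since exons of the files' build were not used here.

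Between the starts, from 200 bp inside each, the median share of probes above the region threshold was 0% on Stringent, and 2.67% and 1.46% on High Coverage arrays 1 and 2. Over all scored probes these shares were 6.66%, 4.52% and 5.18%. Stringent had called regions wholly inside that stretch in 2 receptors, Olfr1026 and Olfr228, and the Olfr1223 region described above reached into it. Each High Coverage array had such regions in 7 receptors, 17 regions in all on High Coverage 1 and 19 on High Coverage 2. Olfr137 had the largest share on High Coverage 1, 35.3%, and Olfr1223 had it on High Coverage 2, 23.5%, and on Stringent, 17.9%. The highest score between the starts exceeded that at both starts in 5 receptors on Stringent and in 7 on each High Coverage array. These stretches held 154 to 1168 scored probes and the windows at the starts 19 to 41, so a higher maximum between the starts was favoured beforehand. On Stringent those of Olfr1138, Olfr1206 and Olfr137 were 1.93, 1.94 and 1.77, below the region threshold, as was that of Olfr1489 on High Coverage 1, at 1.77. Probes covered 16.8% to 93.3% of the 50 bp bins in these stretches, so silence in the gaps was not measured.

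The same leaning on Stringent was seen in the other genes with 2 positions on one strand. In all 6 of them the downstream start was higher on Stringent, with a median upstream minus downstream difference of -9.67, and 6 of 6 downstream starts had a Stringent region. The upstream start was higher in 4 and 3 of the 6 on High Coverage arrays 1 and 2. Stringent regions were found at 38.9% of the 18 positions of the 9 receptors, against 75.0% of the 12 positions of these genes. The share was 61.9% of the 1031 positions of genes with 1 position and 62.5% of 24 among genes with 2 positions on opposite strands. These are counts without a test. By the mean absolute difference of 6 percentiles (2 starts on 3 arrays) from the medians of the 9 receptors, the 3 of these 6 genes most like them were Olfr75-ps1 on chromosome 11, at 2.62 percentile points, Olfr9 on chromosome 10, at 4.10, and Olfr497 on chromosome 7, at 4.82. Of these, Olfr75-ps1 had the opposite order on the 2 products, with differences of -8.07 on Stringent and 0.656 and 2.95 on High Coverage.

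Most of the receptors followed a pseudogene in gene order, which the table of promoters does not list. How the named positions were placed is not known here, so this feature may not be independent of their placing. In the gene order of the RefSeq annotation (GRCm38.p6, used for names and order only), the neighbour on the 5′ side was a pseudogene for 7 of the 9, against 27.5% of 953 receptors with 1 position and 2 of the 6 other genes with 2 positions on one strand. These neighbours were Olfr1025-ps1 for Olfr1026, Gm5023 for Olfr1076, Olfr1139-ps1 for Olfr1138, Olfr1224-ps1 for Olfr1223, Olfr762-ps1 for Olfr137, Olfr1488-ps1 for Olfr1489 and Olfr1073-ps1 for Olfr228. None of the 7 had a named position of its own. The share of other pseudogenes without one is not given here, so this describes these 7 neighbours only. Olfr1206 followed Olfr1204 and Olfr145 followed Olfr877, both protein-coding receptors with 1 named position. Whether an upstream start belongs to the receptor or to the pseudogene before it was not tested, since the arrays do not link a start to an exon. No test was run on this count.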

How the data were processed

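The deposited probe values are MAT scores, which the authors computed separately for every array without a control. Bandwidth was set to 50, the largest gap to 30 and the fewest probes to 5, and the scale is named as natural log, per the file headers. The region scores were likewise deposited by the authors, per array, at a false discovery rate of 0%, per the file headers. The thresholds correspond to unlike p-values, 1.75e-09 for Stringent, and 1.72e-06 and 2.97e-07 for High Coverage arrays 1 and 2. Coordinates were used as the files give them, on the mm9 build that the submitters' processing notes name. No source used here states how the named positions were placed.

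Of 2313448 probes, 5.42% had a score of exactly 0 on every array and were left out as unscored. The number of arrays limits the precision. Named genes were all 9 members and the 3 other genes nearest in percentiles. The members and lists were chosen with earlier results of these data known. Alternatives were other windows, the mean score, stricter region lists, other distances and each High Coverage array left out. The reading of order and regions was tried on simulated data with planted starts, evenly spaced probes and no other signal. That checks the computation only and does not cover gaps in tiling or signal beyond the windows. Python 3.11.15, numpy 2.4.6, pandas 2.3.3 and matplotlib 3.10.9 were used.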

Additional observations from a re-analysis of the deposited data

Results flagged for a closer look

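In 5 receptors the upstream minus downstream difference within 100 bp pointed one way on Stringent and the other way on both High Coverage arrays. This difference between the products was not tested. It was found in 53.3% of all 15 genes with 2 positions on one strand, which include the 9 receptors. With a window of 500 bp only Olfr1138 and Olfr145 kept opposite orders. Stringent minus the High Coverage mean, the difference was -10.6 for Olfr228, -9.08 for Olfr145, -8.64 for Olfr1026, -2.52 for Olfr1223 and -1.36 for Olfr1138. These values subtract scores of arrays that are not on a common scale. The gap between the High Coverage arrays was 1.20, 1.49, 7.06, 0.765 and 1.91 for the same receptors, so that of Olfr1138 exceeded its difference.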

How the results depend on the processing

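The orders and counts below were not tested, and the number of arrays and the gaps in tiling limit them. The upstream start was higher on Stringent in 3 of 9 receptors, in place of 1, with a window of 50 bp and with the mean score. On High Coverage 1 it was higher in 3, in place of 6, with a window of 500 bp and when only differences above the median absolute deviation counted. Opposite orders were found in 2 receptors with the window of 500 bp, in 3 with the 150 bp in the direction of transcription and in 2 above the median absolute deviation, in place of 5. Without either High Coverage array in turn the count was 5. Positions with a region on High Coverage 1 were 11 within 500 bp and 3 among the 3608 highest-scoring regions, in place of 7. The difference of Olfr137 turned on all 3 arrays with the window of 500 bp, to -2.71 on Stringent, and to -6.56 and -2.43 on High Coverage arrays 1 and 2. That of Olfr228 turned with this window on High Coverage arrays 1 and 2, to -7.97 and -4.45, and that of Olfr1223 on Stringent, to 17.5. On High Coverage 1 Olfr1026 turned to -1.33 with this window and to -0.607 over the 150 bp in the direction of transcription, where Olfr1223 turned to -0.400. Smaller Stringent differences also turned, in Olfr1206 and Olfr1223 with the window of 50 bp and in Olfr1138 and Olfr1206 with the mean score. The cause was not tested. The other 31 recomputed counts and medians stayed within 1.5 times their value or within the High Coverage spread. No paired analysis was possible because Stringent has 1 array, so the groups share fewer than 2 replicate numbers.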
